A study of Mus musculus with 7 samples.

Results

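Germline genes are transcribed mainly in germ cells, and several of them also carry active chromatin in mouse embryonic stem (ES) cells. The 9 genes described were Aurkc, Dazl, Ddx4, Sycp3, Mael, Dppa3, Dppa2, Dppa4 and Tdrkh. Merged H3K27ac peaks that overlapped the gene body plus 5 kb on each side (mm10, GENCODE M21) were assigned to a gene. This gave 22 of the 66841 peaks, at 7 genes, and 19 of them lay outside the Aurkc region. Aurkc was chosen by its H3K27ac read counts, for a loss at both time points after NeuroD1 induction that was seen at its promoter peak alone, so the values of all its peaks are given as a description without a test.

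Acetylation of lysine 27 of histone H3 marks active promoters and enhancers. In ES cells, promoters of germline genes are kept silent by DNA methylation and by PRC1.6, a variant Polycomb complex. PRC1.6 is brought to DNA in part by MGA and MAX at the E-box CACGTG and by E2F6 at a GC-rich motif. Dppa2, Dppa3 and Dppa4, by contrast, are active in pluripotent cells as well as in the germline.

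A2Lox ES cells were used in which doxycycline switches on an HA-tagged mouse NeuroD1 transgene. Every library, also at 0 h, came from cells with this transgene. H3K27ac ChIP-seq of untreated cells (0 h) was compared with that of cells given 500 ng/ml doxycycline for 12 h or 48 h, and each time point had 2 libraries, R1 and R2. The cells were grown without feeders after passages that removed them. Nothing states that R1 and R2 were separate cultures, so p-values measure only the spread between these samples, which may be technical.

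Each library held between 6283103 and 8112895 reads in merged peaks. The 48 h libraries differed from each other more than those of the other time points, with a chi-square per degree of freedom of 5.54 against 1.79 at 0 h and 1.42 at 12 h. Across peaks their R1 to R2 difference followed GC content, with r = 0.56. The peaks of a library share its base composition and depth, so this is a description. All 8 ES cell markers examined had a promoter peak, and 3 of them fell at 48 h, against 2.87% lost over all promoter peaks. These were Nanog (edgeR adjusted p = 0.014), Esrrb (0.028) and Fgf4 (0.00037). The Nanog change did not pass with DESeq2 (adjusted p = 0.08). The summed scaled counts of the 8 markers were 19650 and 20100 in the untreated libraries, 21700 and 21470 after 12 h and 13180 and 16680 after 48 h. A promoter peak was present at 1 of 6 fibroblast markers, 0 of 4 endoderm markers and 1 of 3 trophoblast markers. That one, Cdx2, rose at 12 h from 1 and 2 reads to 7 and 18 (edgeR adjusted p = 0.022). Of 6 neuron markers 5 had a promoter peak, and 3 rose at 48 h, against 4.87% gained over all promoter peaks. These were Tubb3 (edgeR adjusted p = 0.00035), Nhlh1 (1.4e-05) and Neurod4 (3.8e-07). Stmn2 changed by -0.09 and Elavl3 by -0.48 at 48 h without passing the test, and Elavl3 fell at 12 h (-1.78, edgeR adjusted p = 0.016). The sum of the 5 neuron markers was 509.0 and 458.5, then 432.1 and 478.3, then 908.2 and 753.2 scaled reads. In bulk chromatin, fewer cells of a type and less signal per cell cannot be told apart. The part of cell composition in the changes described below was not tested.

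RefSeq promoter windows (GRCm38.p6, 250 bases before to 50 after the start) were found for 6 of the 9 genes. Dppa2, Dppa3 and Dppa4 had no entry. The sequences below are those of Aurkc, whose values open the results, and of the 3 members with a CACGTG in their window, in capitals. The stretches of Aurkc, Sycp3 and Mael lie upstream of the first annotated start. For Ddx4, which had no peak, 30 bases around its CACGTG are shown, which lie downstream of its first annotated start.
Aurkc, chr7:6995135-6995299, + strand: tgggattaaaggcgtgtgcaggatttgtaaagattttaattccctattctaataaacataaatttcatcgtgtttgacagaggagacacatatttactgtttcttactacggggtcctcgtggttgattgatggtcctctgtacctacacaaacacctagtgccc
Sycp3, chr10:88459337-88459568, + strand: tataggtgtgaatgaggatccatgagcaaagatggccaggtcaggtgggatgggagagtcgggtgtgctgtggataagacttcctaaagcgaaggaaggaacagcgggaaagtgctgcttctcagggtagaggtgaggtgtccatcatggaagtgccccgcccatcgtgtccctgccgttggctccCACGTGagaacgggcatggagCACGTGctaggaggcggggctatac
Mael, chr1:166238748-166238994, - strand: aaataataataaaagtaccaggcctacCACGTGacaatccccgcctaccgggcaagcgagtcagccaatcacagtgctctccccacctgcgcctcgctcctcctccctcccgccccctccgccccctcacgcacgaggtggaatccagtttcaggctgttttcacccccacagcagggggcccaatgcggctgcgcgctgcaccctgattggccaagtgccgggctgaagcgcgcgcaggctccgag
Ddx4, chr13:112652322-112652351, - strand: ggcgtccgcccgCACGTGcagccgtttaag

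CACGTG, searched on both strands, was found in the windows of Sycp3 (2 matches), Mael (1) and Ddx4 (1, at -29), and in none of Aurkc, Dazl and Tdrkh. It was present in 7.2% of all 32851 promoter windows. TCCCGC was found in Mael (2), Sycp3 (1) and Ddx4 (1), and in 20% of all windows. The E-box CAGATG, one of the forms that NeuroD1 can bind, was found once in Dazl and in 17.2% of all windows. CAGCTG was found in none of the 6 members and in 16.3% of all windows. The ratio of observed to expected CpG was 0.38 in Aurkc, the median of all windows, and 0.67 to 0.98 in the other members with a window. A match describes the letters only.

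Aurkc encodes Aurora kinase C, a chromosomal passenger kinase of meiotic cells. Its 3 peaks lay at chr7:6993343-6994496, 804 bp upstream of the start, at chr7:6995434-6996132, which covers an annotated start and overlaps coding exon and UTR, and at chr7:6997895-7000646 within the gene body. Counts were scaled by library total to the mean total of the 6 libraries. At the promoter peak the scaled read counts were 47.2 and 57.3 in untreated cells, 19.3 and 24.8 after 12 h and 12.2 and 9.5 after 48 h. The time points did not overlap, and the mean at 12 h was 42.2% and at 48 h 20.7% of that at 0 h. These levels rest on 46 and 54 reads at 0 h and on 11 reads in each 48 h library.

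The peaks on either side of the Aurkc promoter followed another course. The upstream peak held scaled read counts of 68.8 and 70.1 in untreated cells, 76.1 and 75.4 after 12 h and 21.1 and 29.2 after 48 h. The gene body peak held 141.6 and 156.0 in untreated cells, 185.5 and 158.2 after 12 h and 40.0 and 50.7 after 48 h. In both peaks the 12 h libraries were above and the 48 h libraries below those at 0 h. The 3 peaks together held 270.5 ± 18.2 scaled reads (SD, n = 2) in untreated cells. After 12 h they held 99.7% and after 48 h 30.1% of this level. The log2 fold changes at 12 h were 0.13 upstream, -1.23 at the promoter and 0.21 in the gene body, and at 48 h they were -1.44, -2.27 and -1.70. With an offset on GC content the 12 h changes were -0.13, -0.98 and -0.02, so the sign turned for the upstream and the gene body peak.

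**Figure D1:**
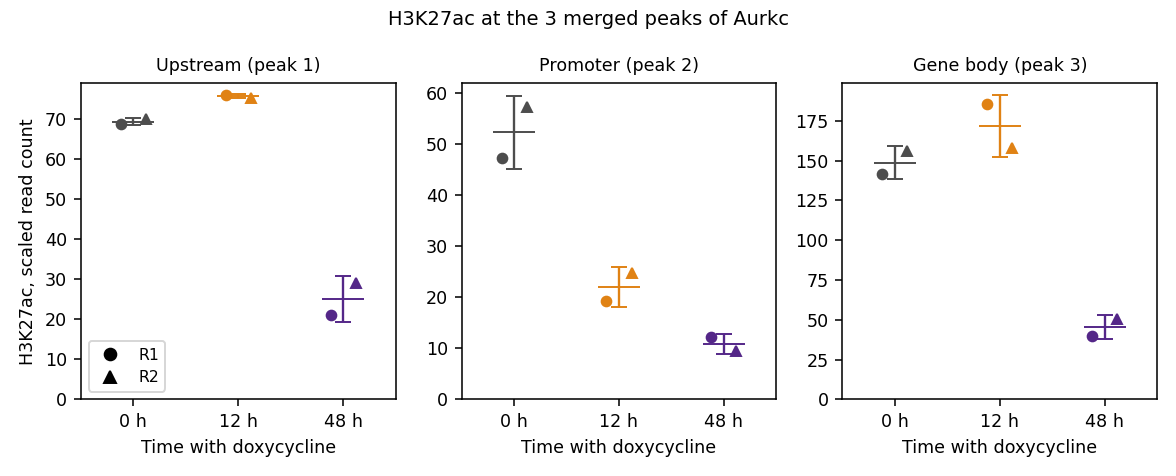
Scaled H3K27ac read counts at the 3 Aurkc peaks against time with doxycycline; circles and triangles are R1 and R2, horizontal lines the means and bars the SD (n = 2). The promoter peak fell to 42.2% of its 0 h mean at 12 h, while the flanking peaks stood above 0 h at 12 h and below it at 48 h. With an offset on GC content the 12 h changes of the flanking peaks turned sign.

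No other peak lay in the Aurkc region. The nearest downstream peak, 15752 bp from the gene body, had log2 fold changes of 1.05 after 12 h (edgeR's quasi-likelihood test, Benjamini-Hochberg adjusted p = 0.16) and 0.69 after 48 h (adjusted p = 0.43). The promoter peak of Usp29, the nearest upstream at 47020 bp, had -0.34 at 48 h (adjusted p = 0.70 by the same edgeR test). A distal peak at chr7:6914133-6914791 rose at 48 h, from 5.13 and 8.49 to 36.6 and 43.0 scaled reads (edgeR adjusted p = 0.0002).

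The 5 promoter peaks whose course over the 6 libraries was nearest to that of the Aurkc promoter, out of 13366 candidates, belonged to Ankrd45, Ntn1, Cldn3, Esrp1 and Gm9817. The Euclidean distances in log2 scaled counts relative to 0 h were 0.45 to 0.70. Ankrd45 went from 75.9 and 91.3 scaled reads to 28.9 and 25.8 after 48 h. Esrp1, an epithelial splicing factor, went from 308.9 and 330.1 to 121.0 and 124.7.

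In the middle 300 bases of the gene body peak of Aurkc 2 matches of CAGCTG were found. This stretch is shown in capitals for CAGCTG, and it was chosen after the letters of all member peaks had been read.
Aurkc gene body, chr7:6999121-6999420, + strand: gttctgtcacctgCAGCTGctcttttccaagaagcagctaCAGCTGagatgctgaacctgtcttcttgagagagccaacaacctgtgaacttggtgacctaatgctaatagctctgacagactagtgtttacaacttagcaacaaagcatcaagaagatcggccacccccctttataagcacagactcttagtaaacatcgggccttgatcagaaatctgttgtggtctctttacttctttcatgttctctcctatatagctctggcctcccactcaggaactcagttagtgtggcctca

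Among the 19 member peaks of at least 300 bases, CAGCTG was present in the middle 300 bases of this peak, of the Dppa3 promoter peak (1) and of Dppa2 peak 2 (1), against 16.2% of 58246 peaks. CAGATG was present in 2 Dppa4 peaks, against 18.1%, and CACGTG in 1 Dppa4 peak, against 4.9%.

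Sycp3, which encodes a component of the synaptonemal complex that holds homologous chromosomes together, had 1 peak, at 4 bp from an annotated start. It held 64.7 and 67.9 scaled reads in untreated cells, 45.0 and 42.3 after 12 h and 34.4 and 44.7 after 48 h. Both later time points were below both 0 h libraries, but neither passed the test. The log2 fold change was -0.60 ± 0.28 (SE) after 12 h (edgeR's quasi-likelihood test, Benjamini-Hochberg adjusted p = 0.13) and -0.73 ± 0.28 after 48 h (adjusted p = 0.082). With only the 0 h and 12 h libraries the 12 h change passed (edgeR adjusted p = 0.042), but with DESeq2 it did not (0.36). The 48 h change passed neither with only the 0 h and 48 h libraries (edgeR adjusted p = 0.15) nor with DESeq2 (0.35). The 48 h change was -0.57 without 48 h R1 and -0.94 without 48 h R2, where the 48 h spread is not measured. With the GC content offset the changes were smaller, -0.18 at 12 h (adjusted p = 0.69) and -0.49 at 48 h (0.18).

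Dazl, an RNA-binding protein needed for germ cell development, had 1 peak of 577 bp at its promoter. It held 22.6 and 27.6 scaled reads in untreated cells, 9.6 and 21.2 after 12 h and 21.1 and 13.8 after 48 h. The 12 h and 48 h libraries overlapped each other, and no change passed the test (edgeR adjusted p = 0.27 at 12 h and 0.42 at 48 h). Mael, a component of the piRNA pathway that silences transposons, had 1 promoter peak of 267 bp with an average of 6.3 reads. Its libraries held between 3.4 and 8.9 scaled reads, and a change was not detectable at this depth.

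Ddx4, an RNA helicase of germ cells, and Tdrkh, a Tudor protein of the piRNA pathway, had 0 merged peaks. The nearest merged peak lay 7888 bp from Ddx4, at the promoter of Slc38a9, and 8073 bp from Tdrkh, at the shared promoter of Mrpl9 and Oaz3. An absent peak means that no time point reached the peak caller's threshold, and reads there were not counted in the table used.

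**Figure D2:**
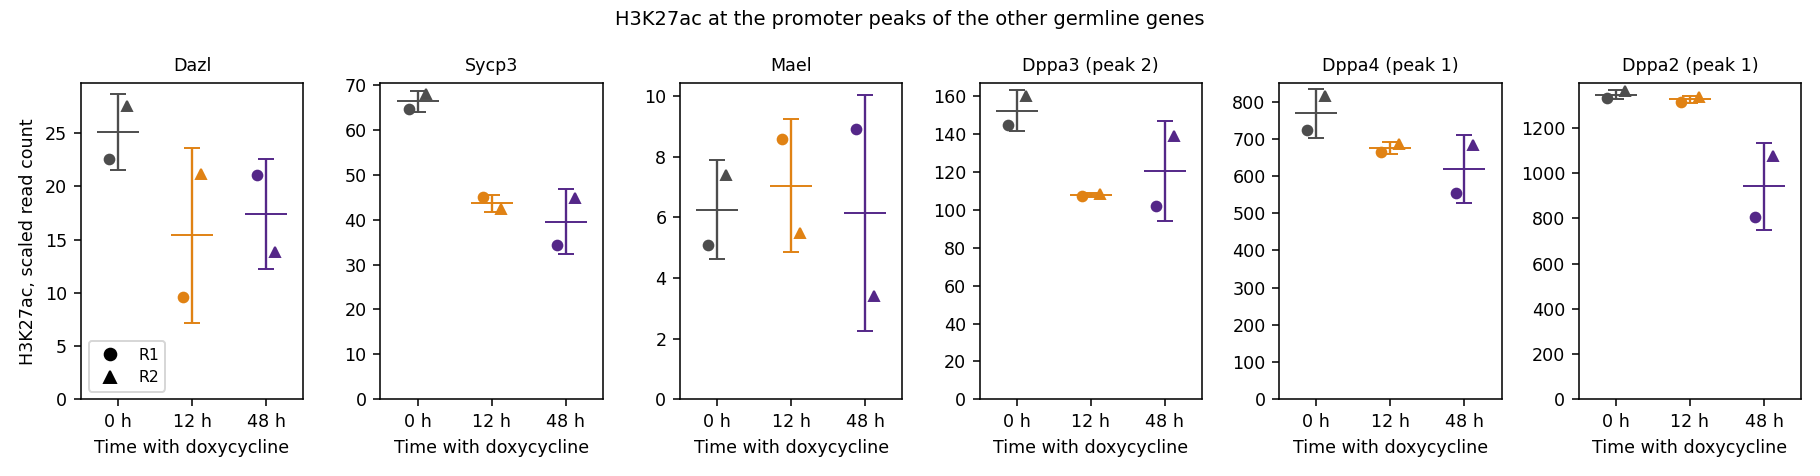
Scaled H3K27ac read counts at the promoter peak nearest the start of each member with a peak other than Aurkc, against time with doxycycline. Circles and triangles are R1 and R2, lines the means and bars the SD (n = 2). The upstream Dppa3 peak is not shown. The scales differ between panels, with the lowest counts at Mael and the highest at Dppa2, where the 48 h libraries lie below the others.

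Dppa3 (Stella) protects the maternal genome from demethylation and is expressed in ES cells and primordial germ cells. It had 3 peaks. The upstream one, at chr6:122624782-122625261 and 1149 bp from the start, held 18.5 and 10.6 scaled reads in untreated cells, 45.0 and 31.3 after 12 h and 17.8 and 26.7 after 48 h. It rose at 12 h by 1.37 ± 0.39 on the log2 scale (edgeR's quasi-likelihood test, Benjamini-Hochberg adjusted p = 0.018), and at 48 h its libraries overlapped those at 0 h (0.62, adjusted p = 0.35). Its 0 h level rests on 18 and 10 reads, and the call was lost when any 1 of the 0 h or 12 h libraries was left out (adjusted p = 0.051 to 0.26) and with DESeq2 (adjusted p = 0.067).

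The middle 300 bases of this peak are shown because it was the only member peak that gained H3K27ac in the 12 h test. The E-box CAGATG was not found in them, nor was CAGCTG or the E-box with central CG.
Dppa3 upstream peak, chr6:122624872-122625171, + strand: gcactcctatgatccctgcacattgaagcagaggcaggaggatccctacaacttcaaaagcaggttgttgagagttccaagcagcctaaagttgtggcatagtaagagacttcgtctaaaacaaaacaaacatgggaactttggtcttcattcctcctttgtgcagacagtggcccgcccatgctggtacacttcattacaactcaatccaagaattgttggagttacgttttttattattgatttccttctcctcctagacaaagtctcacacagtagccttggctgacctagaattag

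The promoter peak of Dppa3 held 144.7 and 160.3 scaled reads in untreated cells, 107.2 and 108.5 after 12 h and 102.1 and 139.3 after 48 h. All later libraries were below those at 0 h, but the changes of -0.50 and -0.33 did not pass the edgeR test (adjusted p = 0.13 and 0.37). With only the 0 h and 12 h libraries the 12 h change passed (edgeR adjusted p = 0.017), but with DESeq2 it did not (0.30). The 48 h change passed neither with only the 0 h and 48 h libraries (edgeR adjusted p = 0.49) nor with DESeq2 (0.70). The 48 h change was -0.13 without 48 h R1 and -0.58 without 48 h R2, where the 48 h spread is not measured. The downstream peak held 34.0 to 46.6 scaled reads over the 6 libraries. Further out, 30540 bp beyond the gene body, a peak at chr6:122660812-122665428 fell at 48 h, from 519.0 and 523.0 to 235.0 and 274.0 scaled reads (edgeR adjusted p = 0.00017). This region was not assigned to Dppa3 by the 5 kb rule.

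Dppa2 and Dppa4 encode a pair of SAP-domain proteins that act together on chromatin at early embryonic genes, and they lie next to each other on chromosome 16. They carried 13 of the 22 peaks. The promoter peak of Dppa2 spanned 10460 bp (chr16:48302374-48312833) and was wider than 99.6% of all peaks. It held 1333.1 and 1361.7 scaled reads in untreated cells, 1314.5 and 1337.5 after 12 h and 806.1 and 1077.4 after 48 h. The first 2 time points overlapped, and both 48 h libraries were lower, with 69.9% of the 0 h mean. The log2 fold change at 48 h was -0.52 ± 0.15 against 0 h (edgeR's quasi-likelihood test, Benjamini-Hochberg adjusted p = 0.025) and -0.49 ± 0.15 against 12 h (adjusted p = 0.027).

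With only the 4 libraries compared, neither change passed the edgeR test (adjusted p = 0.075 against 0 h and 0.075 against 12 h). The loss against 0 h was smaller without the R1 library at 48 h (-0.32) and larger without R2 (-0.74), fits that leave the 48 h spread unmeasured. It did not pass with TMM factors (adjusted p = 0.058), with DESeq2 (0.12), or when any 1 of the 0 h or 12 h libraries was left out (0.078 to 0.24). The difference from 12 h did not pass with the GC content offset (-0.26, adjusted p = 0.11) or without any 1 of those libraries (0.069 to 0.23).

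The promoter peak of Dppa4 spanned 5775 bp and held 722.5 and 815.1 scaled reads in untreated cells, 663.7 and 687.2 after 12 h and 555.1 and 684.5 after 48 h. The later libraries were all below 0 h, but the changes of -0.19 and -0.31 were not called (edgeR adjusted p = 0.43 and 0.22). With the GC content offset they passed (adjusted p = 0.014 and 0.038). A second Dppa2 peak, at chr16:48312877-48314320, fell at 12 h from 70.8 and 84.9 to 47.2 and 41.4 scaled reads (-0.81 ± 0.27, edgeR adjusted p = 0.040) and held 52.2 and 51.6 at 48 h (adjusted p = 0.15 against 0 h). This call was lost with TMM factors (adjusted p = 0.058), with DESeq2 (0.15) and when any 1 of the 0 h or 12 h libraries was left out (0.10 to 0.32).

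The remaining 10 peaks at Dppa2 and Dppa4 lay in exons, introns or flanks, and none of them was called in any comparison. Their lowest means were 7.7 reads (Dppa2 peak 4) and 7.8 reads (Dppa4 peak 5). Of all 22 member peaks 8 averaged under 20 reads, and 20 had at least 10 counts in 2 libraries.

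Per kb of peak, the highest 0 h levels among the members were those of Dppa4 (133 scaled reads per kb) and Dppa2 (129), followed by the Aurkc promoter (74.8) and Sycp3 (69.3). The libraries of Dppa4 (125 and 141) and Dppa2 (127 and 130) overlapped, as did those of Aurkc (67.5 and 82.0) and Sycp3 (67.6 and 71.0). Dppa3 had 55.8 per kb, Dazl 43.5 and Mael 23.5. Among all promoter peaks the Aurkc promoter stood at the 45.7th percentile per kb at 0 h and at the 0.8th at 48 h. Aurkc was chosen for its loss in these same counts, so these ranks are a description only.

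Counted over the 19 peaks outside Aurkc, 1 rose and 1 fell at 12 h, against 9.93% gained and 6.03% lost over all peaks. With TMM factors 1 rose and 0 fell, and with the GC content offset 1 rose and 2 fell. After 48 h 0 rose and 1 fell, against 8.56% and 5.45%. Between 12 h and 48 h 0 rose and 1 fell, against 10.7% and 8.43%. In both 48 h comparisons 0 of the 19 peaks rose by edgeR at an unadjusted p under 0.05 and 0 by DESeq2. The 12 h and 48 h comparisons share the 0 h libraries. The median log2 fold change of the 19 peaks was -0.31 at 12 h and -0.34 at 48 h, against -0.08 and -0.04 over all peaks. Over all promoter peaks it was -0.38 and 0.06. Of the 19 peaks 13 lay at the adjacent genes Dppa2 and Dppa4, so their median largely describes that locus. The shares called were not above those over all peaks.

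**Figure D3:**
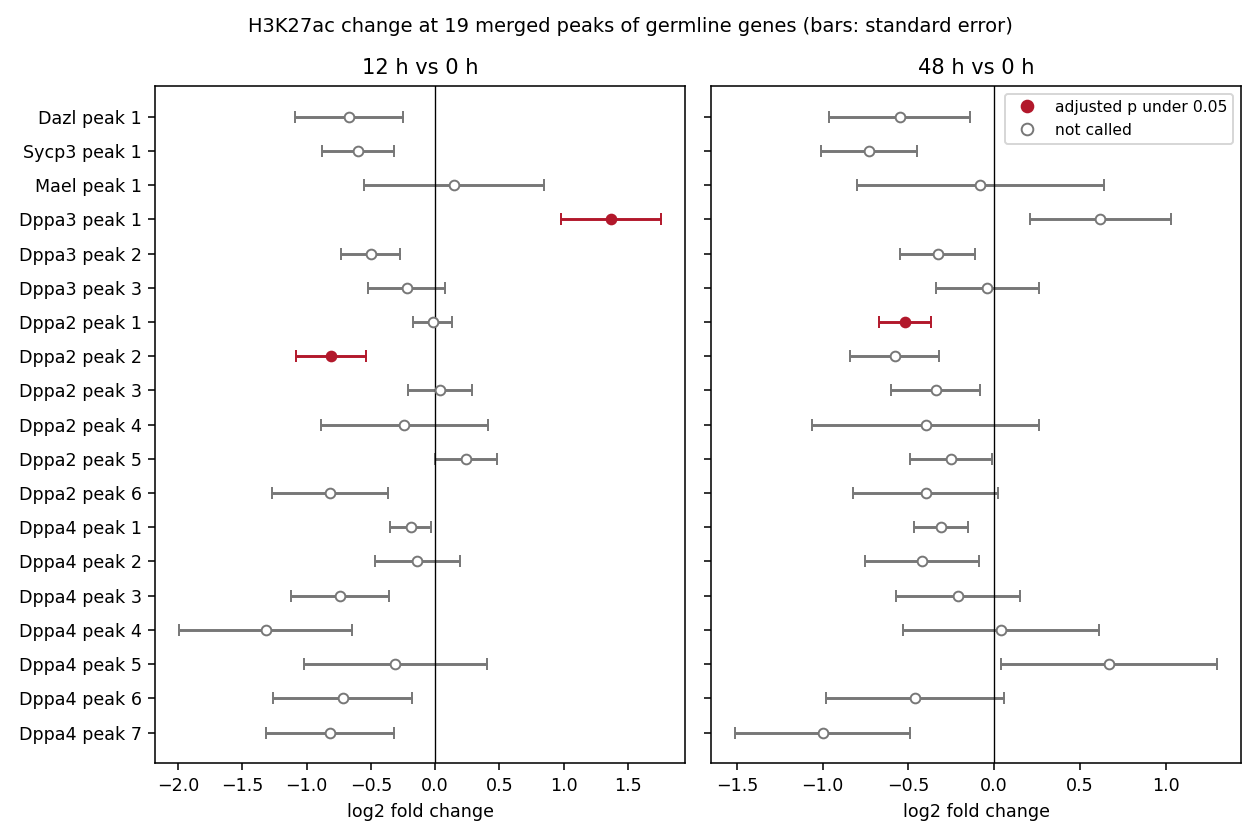
Log2 fold changes of the 19 peaks outside Aurkc at 12 h and 48 h against 0 h; bars are the standard error and filled red points have an adjusted p under 0.05. Dppa3 peak 1 (gained) and Dppa2 peak 2 (lost) pass at 12 h, and Dppa2 peak 1 (lost) at 48 h.

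Other germline genes, genes near Dppa3, Aurora kinases and PRC1.6 subunits were taken from 8 lists. Of 105 genes 62 had a promoter peak, at 61 distinct peaks. At 12 h 2 of these rose and 12 fell, against 2.40% gained and 17.0% lost over all promoter peaks. With TMM factors 3 rose and 5 fell, and with the GC content offset 3 rose and 9 fell. At 48 h 0 rose and 11 fell, against 4.87% and 2.87%; at an unadjusted p under 0.05 in edgeR 3 rose, and by DESeq2 0 did. With the GC content offset 5 rose and 11 fell. Between 12 h and 48 h 9 rose and 4 fell, against 27.4% and 2.61%. With the GC content offset 10 rose and 10 fell. In both 48 h comparisons the split into rises and falls depended on which 48 h library was left out. Such fits do not measure the 48 h spread. The median change was -0.26 at 12 h and -0.11 at 48 h, where over all promoter peaks it was -0.38 and 0.06.

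**Figure D4:**
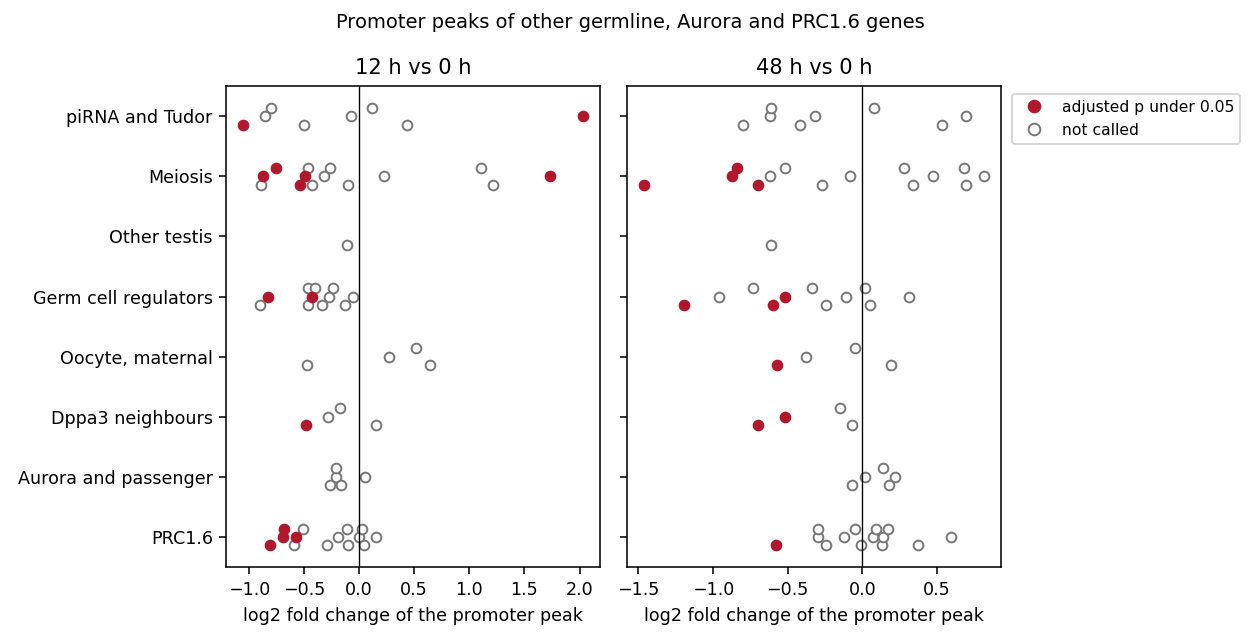
Log2 fold change of each promoter peak of the 8 lists at 12 h and 48 h against 0 h; filled red points have an adjusted p under 0.05. Of the 61 peaks 12 fell and 2 rose at 12 h, and 11 fell at 48 h.

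Of 30 meiotic genes 14 had a promoter peak, and 4 of these fell at 48 h, against 2.87% lost over all promoter peaks. Dmc1, the recombinase of meiotic strand exchange, went from 159.1 and 153.9 scaled reads at 0 h to 92.2 and 79.1 at 48 h (-0.87 ± 0.22, edgeR adjusted p = 0.0099). Stra8, the retinoic acid target that starts meiosis, went from 25.7 and 39.3 to 13.3 and 10.3 (-1.46 ± 0.41, edgeR adjusted p = 0.017). Terb1, which tethers telomeres to the nuclear envelope, fell at both time points, by 0.75 on the log2 scale after 12 h (edgeR adjusted p = 0.047) and by 0.84 after 48 h (0.030). The synaptonemal complex gene Syce2 fell at 12 h (-0.87, edgeR adjusted p = 0.0085), while Syce1, with 5 and 6 reads at 0 h, rose (1.73, adjusted p = 0.024).

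Of 18 piRNA and Tudor genes 8 had a promoter peak and none passed at 48 h, against 4.87% gained and 2.87% lost over all promoter peaks. Pld6, a mitochondrial nuclease of piRNA biogenesis, fell at 12 h (-1.05, edgeR adjusted p = 0.026). Piwil4, a PIWI protein, rose from 3.1 and 4.2 scaled reads to 13.9 and 16.6 (2.03, edgeR adjusted p = 0.030). Of 11 primordial germ cell regulators with a peak 3 fell at 48 h, against 2.87% lost over all promoter peaks. Kit, the receptor for stem cell factor, went from 186.8 in both 0 h libraries to 96.6 and 68.8 at 48 h (-1.19 ± 0.24, edgeR adjusted p = 0.0016). Nanos3, which protects germ cells from apoptosis, fell by 0.60 on the log2 scale at 48 h (edgeR adjusted p = 0.011).

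Of the 4 Dppa3 neighbours with a promoter peak 2 fell at 48 h, against 2.87% lost over all promoter peaks. Nanog, a pluripotency factor, changed by -0.52 (edgeR adjusted p = 0.014) and the glucose transporter gene Slc2a3 by -0.70 (adjusted p = 0.0029). The peak shared by Ooep and Dppa5a, a maternal-effect gene and an ES cell gene, went from 3335.2 and 3332.7 scaled reads at 0 h to 1832.0 and 2657.0 at 48 h (-0.57, edgeR adjusted p = 0.0097).

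The Aurora kinases of somatic mitosis showed no called change. The promoter peak of Aurka went from 601.4 and 577.4 scaled reads to 688.4 and 647.5 after 48 h (edgeR adjusted p = 0.50), and that of Aurkb from 283.2 and 313.1 to 278.7 and 287.2 (adjusted p = 0.84). All 14 PRC1.6 genes had a promoter peak, and 4 fell at 12 h, against 17.0% lost over all promoter peaks. Ring1, an E3 ligase subunit whose peak is shared with H2-Ke6, had 401.2 and 475.5 scaled reads at 0 h, 243.4 and 256.7 at 12 h (-0.81, edgeR adjusted p = 0.0051), and 668.4 and 470.3 at 48 h. Pcgf6, the defining Polycomb ring finger subunit, fell at 12 h (-0.69, edgeR adjusted p = 0.026). Rybp, a subunit of variant PRC1 complexes, fell at 48 h (-0.58, edgeR adjusted p = 0.034). With the GC content offset the 12 h calls of Ring1 (edgeR adjusted p = 0.069), Pcgf6 (0.17), Kit (0.10), Terb1 (0.36) and Pld6 (0.16) were lost. With DESeq2 those of Pcgf6 (adjusted p = 0.091), Kit (0.06), Terb1 (0.16) and Pld6 (0.13) were lost. The 12 h calls of Ring1 (DESeq2 adjusted p = 0.019) and Syce2 (0.026) held. DESeq2 gave no adjusted p for the 12 h gains of Piwil4 and Syce1. The alternatives refit the same 6 libraries, so the tally that follows is a description. Those with a library left out do not measure the spread at its time point. Over the 12 alternatives, the 48 h loss was called in 11 for Kit, in 10 each for Dmc1, Stra8 and Slc2a3, in 9 each for Nanos3 and Ooep, in 6 for Nanog, in 5 for Rybp and in 4 for Terb1.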

How the data were processed

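H3K27ac ChIP-seq libraries of A2Lox mouse ES cells were analysed at 0 h, 12 h and 48 h. The Input library has no column in the table. Per its authors' methods, Bowtie2 (local mode) placed the reads on mm10. The authors used SAMtools 0.1.19, called peaks with MACS2 against Input, merged them over samples and deposited raw read counts per merged peak from QuasR. Groups came from the sample labels. All 66841 peaks were tested with edgeR 4.0.16 (glmQLFit and glmQLFTest) in R 4.3.3, with 6 libraries, library totals as offset, Benjamini-Hochberg adjustment and a threshold of 0.05. The standard error is the absolute log2 fold change divided by the square root of F. Dividing a count by its library total and multiplying by the mean total gave the scaled count. The fits were also run on simulated counts with the same spread in all libraries. That setting leaves out the larger spread at 48 h, so it does not test the calls under it. Promoter peaks lie within 2 kb of a GENCODE start. For Aurkc and Dppa3, whose upstream peaks also do, the name was kept for the peak over the start. Figures and tables used Python 3.11.15, numpy 2.4.6, pandas 2.3.3 and matplotlib 3.10.9.

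Alternatives were TMM factors, DESeq2 1.42.0, a minimum of 10 counts in 2 libraries, a replicate block, the 4 libraries compared, a GC content offset, each library left out and other flanks. A fit with a library left out keeps 1 at that time point and does not measure the spread there. Member peaks were named where they lay within 2 kb of a start, held the most reads of the member or passed a test. List genes were the up to 2 largest gains and losses among those called, plus Aurka and Aurkb, and 1 result that this rule would name is not reported here. Members, lists and tests were chosen with earlier results of these data known.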

Additional observations from a re-analysis of the deposited data

Results flagged for a closer look

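In 2 Aurkc peaks both 12 h libraries lay above and both 48 h libraries below the 0 h libraries. From 0 h to 12 h the log2 fold changes were 0.13 upstream and 0.21 in the gene body. With the GC content offset they were -0.13 and -0.02. The change from 12 h to 48 h was -1.57 on the log2 scale at the upstream peak and -1.91 in the gene body. This difference was not tested, since Aurkc was chosen for its loss.

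At the Dppa2 promoter peak the change from 0 h differed between 12 h and 48 h, with -0.49 at 48 h against 12 h. The same held for the promoter peak shared by Ooep and Dppa5a (-0.84), for Ring1 (1.18) and for Rybp (-0.58), each by the edgeR test of 48 h against 12 h. Over all promoter peaks 27.4% were gained and 2.61% lost in this comparison. The cause was not tested.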

How the results depend on the processing

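Of 19 member peaks, 2 changed at 12 h, 1 at 48 h against 0 h and 1 at 48 h against 12 h. At 12 h these were 1 with TMM factors, 0 with DESeq2, 4 with the 4 libraries compared and 1 with no flank. At 48 h against 0 h they were 0 with TMM factors, DESeq2 or 4 libraries, and 2 with the GC offset. Between 12 h and 48 h they were 0 with 4 libraries or the GC offset, and 3 with a 10 kb flank. Without 1 library they ranged from 0 to 4 in each comparison. At 12 h they were 0 without any 0 h or 12 h library and 4 without either 48 h library. In both 48 h comparisons they were 0 without any 0 h or 12 h library and 4 without 48 h R2.

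Of 61 list promoter peaks, 14 changed at 12 h, 11 at 48 h against 0 h and 13 at 48 h against 12 h. At 12 h the count was 8 with TMM factors, 2 with DESeq2 and 28 with 4 libraries, and 0 to 29 without 1 library (0 or 1 without a 0 h or 12 h library, 28 or 29 without a 48 h library). At 48 h against 0 h it was 3 with DESeq2 and 6 with 4 libraries, and 0 to 20 without 1 library (0 to 6 without a 0 h or 12 h library, 18 without 48 h R1 and 20 without 48 h R2). Between 12 h and 48 h it was 7 with DESeq2, 5 with 4 libraries and 20 with the GC offset, and 3 to 27 without 1 library (3 to 6 without a 0 h or 12 h library, 27 without 48 h R2).

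Signs turned for uncalled changes, and with the GC offset for the untested 12 h changes of the upstream and gene body peaks of Aurkc. Between 12 h and 48 h Dazl was -0.15 with the GC offset and ranged from -0.30 to 0.82 without 1 library, Sycp3 from -0.34 to 0.04, Dppa3 peak 2 from -0.08 to 0.37, Mael from -0.99 to 0.35, and Dppa4 peak 1 was 0.08 with the GC offset and -0.28 to 0.02 without 1 library. Mael ranged from -0.18 to 0.45 at 12 h and from -0.84 to 0.49 at 48 h without 1 library, and was 0.03 with DESeq2. Dppa2 peak 1 at 12 h was 0.04 with TMM factors and 0.03 with DESeq2.

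A replicate block changed no call of a member peak: 2, 1 and 1 member peaks and 12, 11 and 11 list peaks passed. Deviations of libraries with the same number correlated at -0.04, -0.05 and 0.08. With 2 libraries per time point this cannot show whether libraries of the same number came from 1 culture. The filter removed 2 member peaks and no call. The cause of these differences was not tested. With 2 libraries per time point and 8 member peaks under 20 reads, small changes were not detectable at this depth.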
